A study of Mus musculus with 24 samples.

Results

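The comparison described here is that of Srcap mutant with wild-type (WT) cells in 4 of the 24 RNA-seq libraries of the series, the 4 that are labelled T cells of the bone marrow. They were chosen by that label together with the time point of 2 weeks after transplantation, and 2 are WT and 2 Srcap mutant. Both groups come from C57BL6/J mice, carry the treatment label transplantation and differ by label in genotype only. The labels do not describe the mutant allele, the donor or recipient animals or the sorting gate, and the extraction protocol names sorted hematopoietic stem and progenitor cells (HSPCs) for every sample, the T and B cell samples included. The same time point also has 4 libraries labelled B cells and 4 of HSPCs, again 2 per genotype, which serve here as comparison. Whether replicates are separate animals is not stated, so p-values measure only the spread between these samples.

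Despite the label, the RNA in these 4 libraries was that of granulocytes, and it is described here in neutrophil terms. Neutrophils are short-lived phagocytes made in large numbers in the marrow. As they mature from dividing precursors they fill granules in turn, first primary granules with peroxidase and serine proteases, then secondary granules with lactoferrin and other iron-binding and antimicrobial proteins, then tertiary granules with gelatinase, and they come to be packed with the calcium-binding proteins S100a8 and S100a9. Srcap is the ATPase of a chromatin remodelling complex that exchanges histone H2A for the variant H2A.Z, and the title of the series places the study in clonal hematopoiesis and DNA repair.

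The 12 neutrophil marker genes took 13.9% and 14.4% of all counts in the WT libraries and 15.1% and 16.0% in the mutant ones. In the B cell libraries of the same time point the same genes took 0.365% to 1.31%, and in the HSPC libraries 0.114% to 0.375%. S100a8 stood at 20600 and 22500 CPM (counts scaled to the same library total) in WT and at 23400 and 26200 CPM in mutant libraries, where the B cell libraries reached at most 2440 CPM. Ltf, lactoferrin, was at 17100 and 16200 CPM in WT libraries and 18900 and 17600 CPM in mutant ones. Ly6g, the surface antigen used to sort mouse neutrophils, was at 479 and 521 CPM in WT, with 608 and 601 CPM in mutants, where B cells held 12.1 to 38.4 CPM. All 3 genes were above every B cell and HSPC library in all 4 libraries.

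T cell genes were at trace levels. The 16 T cell markers together took 0.00245% and 0.00255% of counts in WT and 0.00158% and 0.00184% in mutant libraries, which is less than in any B cell library (0.00685% to 0.0101%). Cd3e, which belongs to the antigen receptor complex, was at 1.56 and 0.538 CPM in WT against 0.0883 and 0.663 CPM in mutants. Trac, the constant part of the receptor alpha chain, was at 0.876 and 1.76 CPM in WT libraries and 0.495 and 0.244 CPM in mutant ones, and Bcl11b, a T lineage factor, had no count in WT replicate 2 and mutant replicate 2. Cd3d, another chain of that complex, was the T cell marker with the most counts, at 7.44 to 8.76 CPM, above the B cell libraries (1.5 to 6.66 CPM). Monocyte and macrophage markers took 0.458% to 0.587% of counts, erythroid markers 0.364% to 1.17% and B cell markers 0.0459% to 0.0741%. Kit, the receptor of early progenitors, was at 23.7 to 32.1 CPM, where the HSPC libraries held 338 to 403 CPM.

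**Figure D1:**
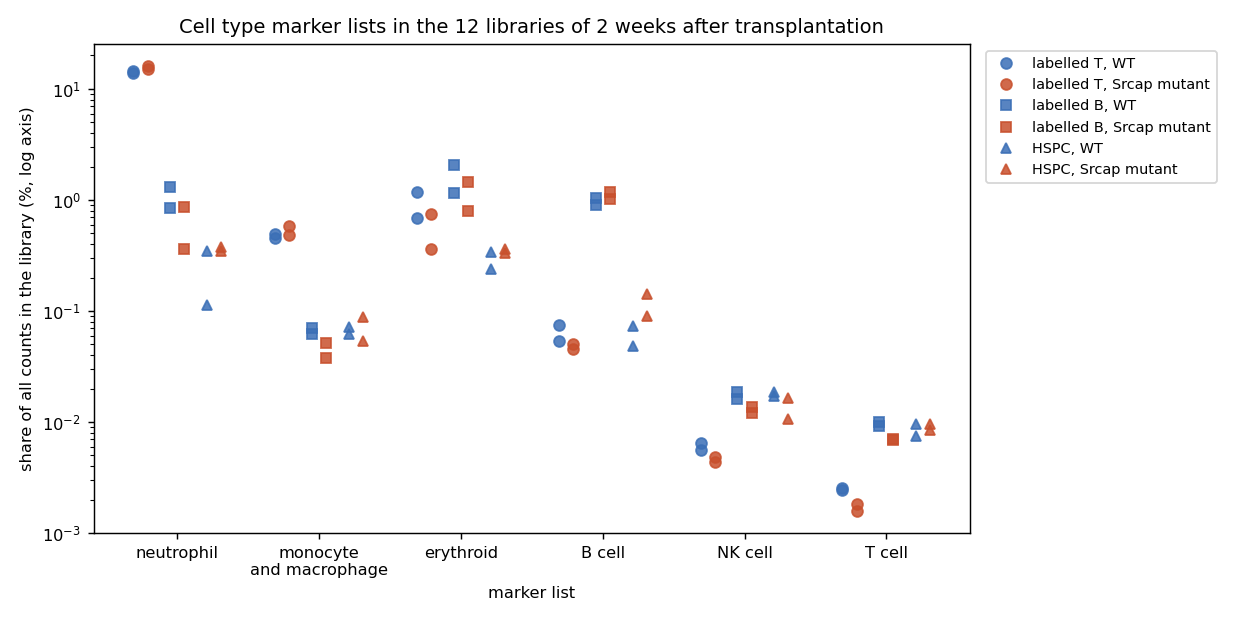
Share of all counts (percent, log axis) taken by 6 marker lists in the 12 libraries of 2 weeks after transplantation, each point 1 library, blue WT and orange Srcap mutant. The libraries labelled T cells (circles) hold 13.9% to 16.0% of their counts in neutrophil markers and 0.00158% to 0.00255% in T cell markers.

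Total counts, in units of 1e6, were 46.8 and 40.9 in the WT libraries and 56.6 and 57.3 in the mutant ones, so both mutant libraries were the deeper, and genes with at least 1 count numbered 18177 and 17860 against 19648 and 18396. Changes below are log2 fold changes, mutant minus WT, after scaling by the trimmed mean of M-values (TMM), with the standard error after the sign ±. CPM values are on library totals. TMM moved mutant minus WT up by 0.07 on the log2 scale relative to CPM, and the median change over all genes tested was 0.00. The fit of 8 libraries took its estimate of spread from the 4 libraries labelled T cells and the 4 B cell libraries together, and a fit of the 4 libraries alone is given beside it.

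Srcap itself (GRCm39 chromosome 7, 127111155 to 127160391) gave 6.09 and 7.46 CPM in WT, with 6.52 and 5.70 CPM in mutants. The change was -0.08 ± 0.26, with a 95% interval of -0.64 to 0.47, and both genotypes overlapped. The counts per gene do not show the allele, so the label of genotype could not be checked by this gene. Of the 13 genes listed for the Srcap complex, H2A.Z and its removal, 11 were lower and 2 higher in mutants, with a median of -0.10 (-0.10 to 0.02 over the other settings) and none passing the test. H2afz, the main H2A.Z gene, was at 258 and 243 CPM in WT against 225 and 215 CPM in mutants, a change of -0.12 ± 0.10. H2afv, the other H2A.Z gene, was at 75.0 and 65.2 CPM in WT libraries and 59.3 and 49.3 CPM in mutant ones, a change of -0.30 ± 0.12 with an edgeR adjusted p of 0.835. Anp32e, the chaperone that takes H2A.Z out of nucleosomes, stood at -0.04 ± 0.12.

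At an adjusted p under 0.05, 2 genes differed by genotype in these libraries, out of 17484 tested (0.0114%). The test was edgeR's quasi-likelihood method with Benjamini-Hochberg adjustment, and 1 gene was higher (0.00572%) and 1 lower (0.00572%) in mutants. At an unadjusted p under 0.05 there were 1000 genes (5.72%), 332 higher (1.9%) and 668 lower (3.82%). DESeq2 called 24 of 16806 genes (0.143%), 7 higher and 17 lower. In the fit of the 4 libraries alone edgeR called none of 14988 genes, with 1026 at an unadjusted p under 0.05 (6.85%). Both mutant libraries lay above both WT libraries in CPM for 2226 genes (12.7%) and below them for 4203 genes (24.0%). The B cell comparison in the same fit called 112 genes (0.641%).

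The gene that rose was Gm43305, an unnamed gene model on chromosome 14 (GRCm39, 54529900 to 54534913) with no overlapping gene in the annotation of the files. It stood at 1.35 and 1.39 CPM in WT (63 and 57 counts) and 7.54 and 6.45 CPM in mutants (427 and 370 counts). Both mutant libraries were far above both WT libraries. The change was 2.42 ± 0.22 with an edgeR adjusted p of 0.000846, and the nearest annotated genes, Olfr49 at 7504 bases and Gm43304 at 26542 bases, had no count in these libraries.

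Gm43305 also rose in the other cells of the same time point. In B cells it reached 17.9 and 12.4 CPM in WT, with 87.9 and 91.3 CPM in mutants. HSPC libraries held 2.15 and 2.30 CPM in WT against 8.0 and 10.4 CPM in mutants. In a fit of all 12 libraries the changes were 2.48 in libraries labelled T cells, 2.56 in B cells and 2.02 in HSPCs, with edgeR adjusted p-values of 0.00167, 0.000443 and 0.00452. The difference between the effect in libraries labelled T cells and that in B cells was -0.15 ± 0.29. In the fit of the 4 libraries alone the call was lost, at a change of 2.41 ± 0.31 and an edgeR adjusted p of 0.0936.

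The gene that fell was Trib2 (chromosome 12, 15841728 to 15866923), a pseudokinase that directs the myeloid transcription factor C/EBP alpha to degradation. It was at 10.3 and 10.1 CPM in WT libraries and 5.10 and 4.20 CPM in mutant ones, without overlap. The change was -1.07 ± 0.14 with an edgeR adjusted p of 0.0364. B cell libraries held more Trib2, 136 and 124 CPM in WT, with 122 and 143 CPM in mutants, with a change of 0.03 ± 0.13. HSPC libraries held 38.6 and 27.3 CPM in WT against 36.2 and 25.8 CPM in mutants. The difference of the effect from that in B cells was -1.09 ± 0.19, which did not pass the test (edgeR adjusted p = 0.073). Cebpa, the gene of C/EBP alpha, was at 45.9 and 33.7 CPM in WT libraries and 38.8 and 45.9 CPM in mutant ones.

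The Trib2 call was less firm than that of Gm43305. Its edgeR adjusted p was 0.0781 without WT replicate 1, 0.158 without WT replicate 2 and 0.738 without mutant replicate 2. It was 0.0622 with RLE size factors, 0.439 in the fit of 12 libraries and 0.643 in the fit of the 4 libraries alone. The call was kept in 5 of 11 other settings. These were DESeq2, no filter, the replicate block, without mutant replicate 1, and without lymphoid, erythroid and immunoglobulin genes. Over all 11 the change stayed between -1.17 and -0.85. B cell marker genes also differed in the direction of Trib2: all 12 were lower in mutants, none passed the test, and their summed share was 0.0534% and 0.0741% in WT and 0.0506% and 0.0459% in mutants. Of the T cell markers 13 of 15 tested were lower and of the NK cell markers 9 of 10, none called. Their medians were -1.23 and -0.65. The part of these 3 lists in the result was not tested. Of the genes near it, Mir6387 lies within Trib2 and Gm5432 starts 81 bases away, both at a mean of 0 CPM in WT and at most 0.0353 CPM in mutants.

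**Figure D2:**
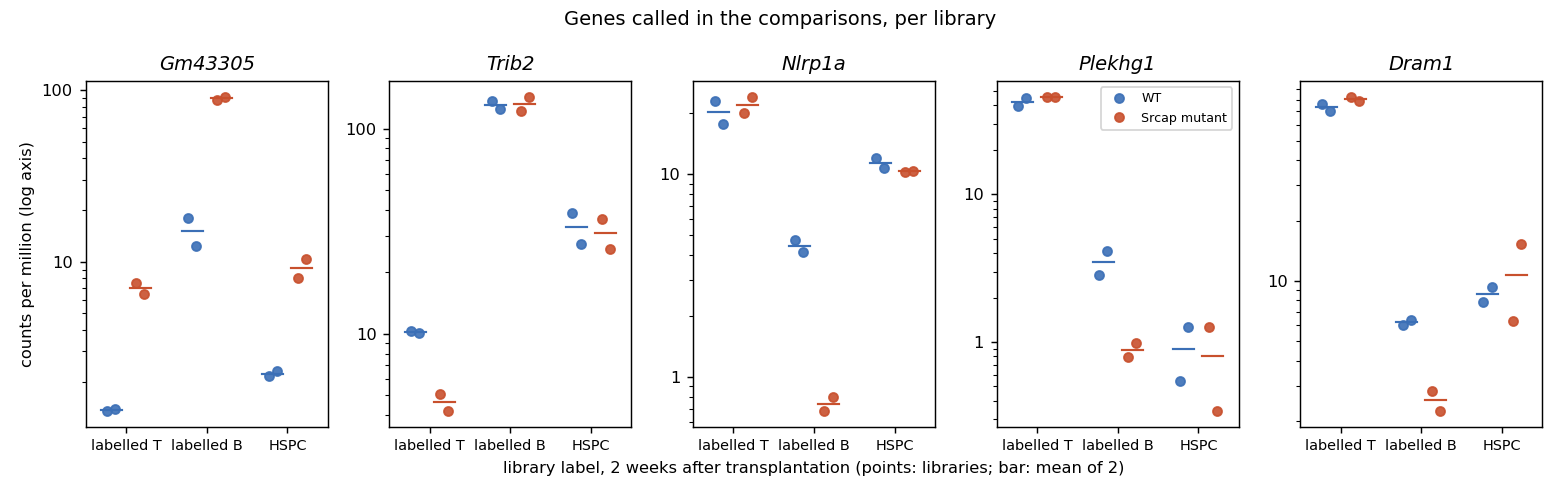
CPM per library (log axis, scale differing by panel) of the genes called in the genotype comparison (Gm43305, Trib2) or in its difference from B cells (Nlrp1a, Plekhg1, Dram1), each point 1 library and each bar the mean of 2. Gm43305 is higher in mutants in all 3 kinds of library, and among libraries labelled T cells Trib2 stands at 10.3 and 10.1 CPM if WT against 5.10 and 4.20 CPM if mutant.

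No gene of the neutrophil granule, receptor, oxidase, cytokine or transcription factor lists passed the test, in the fit of 8 libraries or in the fit of the 4 libraries alone. The fit of 8 libraries gave wide intervals for many granule genes, and it shares its estimate of spread with B cell libraries, in which the neutrophil markers took 0.365% to 1.31% of counts. The standard error of S100a8 was 0.48 in the fit of 8 libraries and 0.10 in the fit of the 4 libraries, with a change of 0.26 in both. Over all genes, the 95% interval lay within a 2-fold change for 9091 of 17484 genes (52.0%) in the fit of 8 libraries and for 9529 of 14988 (63.6%) in the fit of the 4 libraries. In the latter it lay within 1.5-fold for 6953 genes (46.4%). By sign, 49.1% of all genes tested were higher and 49.3% lower in mutants.

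Primary granule genes, made by promyelocytes, showed no direction, with 3 of 9 tested members higher and a median of -0.01. Mpo, myeloperoxidase, was at 777 and 506 CPM in WT, with 710 and 505 CPM in mutants. Elane, neutrophil elastase, was at 295 and 203 CPM in WT against 285 and 189 CPM in mutants. In both genes replicate 1 was the higher within each genotype and the genotypes overlapped. Serpinb1a, an inhibitor of these proteases, was at 638 and 678 CPM in WT libraries and 689 and 712 CPM in mutant ones, a change of 0.16 ± 0.12.

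Secondary granule genes were mostly a little higher in mutants. Of 22 tested, 18 were higher and 4 lower, with a median of 0.15, and both mutant libraries lay above both WT libraries in 9 and below them in 2, against 12.7% and 24.0% of all genes tested. Their summed share of counts was 9.48% ± 0.105 in WT and 10.2% ± 0.267 in mutants (SD, n = 2). Ngp, a cathelicidin-related granule protein, was at 22100 and 21200 CPM in WT, with 25400 and 25000 CPM in mutants, a change of 0.28 (0.09 to 0.47) in the fit of the 4 libraries with an edgeR adjusted p of 0.697. Ltf stood at 0.19 (0.00 to 0.39) in that fit, and Lyz2, lysozyme, at 0.17 (-0.02 to 0.36). Camp, the cathelicidin precursor, was at 8020 and 8040 CPM in WT against 8320 and 7040 CPM in mutants and stood at 0.00 (-0.22 to 0.21). For all 22 genes the interval of that fit lay within 1.5-fold.

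Tertiary granule and secretory vesicle genes had a median of 0.09, with 13 of 18 higher. Mmp9, gelatinase B, was at 3970 and 4050 CPM in WT libraries and 4340 and 3590 CPM in mutant ones, so the mutant libraries lay on either side of the WT ones. Itgam, the CD11b chain of the complement receptor integrin, was at 583 and 628 CPM in WT, with 679 and 735 CPM in mutants, without overlap, a change of 0.28 (0.09 to 0.48) in the fit of the 4 libraries with an edgeR adjusted p of 0.697. Retnlg, a resistin-like secreted protein, was at 4320 and 5020 CPM in WT against 4910 and 5390 CPM in mutants. The lowest member was Alpl, tissue-nonspecific alkaline phosphatase, at 1.77 and 2.20 CPM in WT libraries and 1.2 and 0.209 CPM in mutant ones, a change of -1.43 ± 0.60.

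Of 10 S100 and cytosolic proteins, 8 were higher and the median was 0.15. S100a9, the partner of S100a8, was at 50100 and 54400 CPM in WT, with 52100 and 62100 CPM in mutants, with overlap, and S100a8 was without overlap at the values given above. The 95% intervals in the fit of the 4 libraries were 0.05 to 0.47 for S100a8 and -0.04 to 0.41 for S100a9. The edgeR adjusted p-values in that fit were 0.697 and 0.755. In the fit of 8 libraries the intervals were -0.99 to 1.52 and -0.96 to 1.35. S100a6 was at 1420 and 1360 CPM in WT against 1290 and 1380 CPM in mutants.

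**Figure D3:**
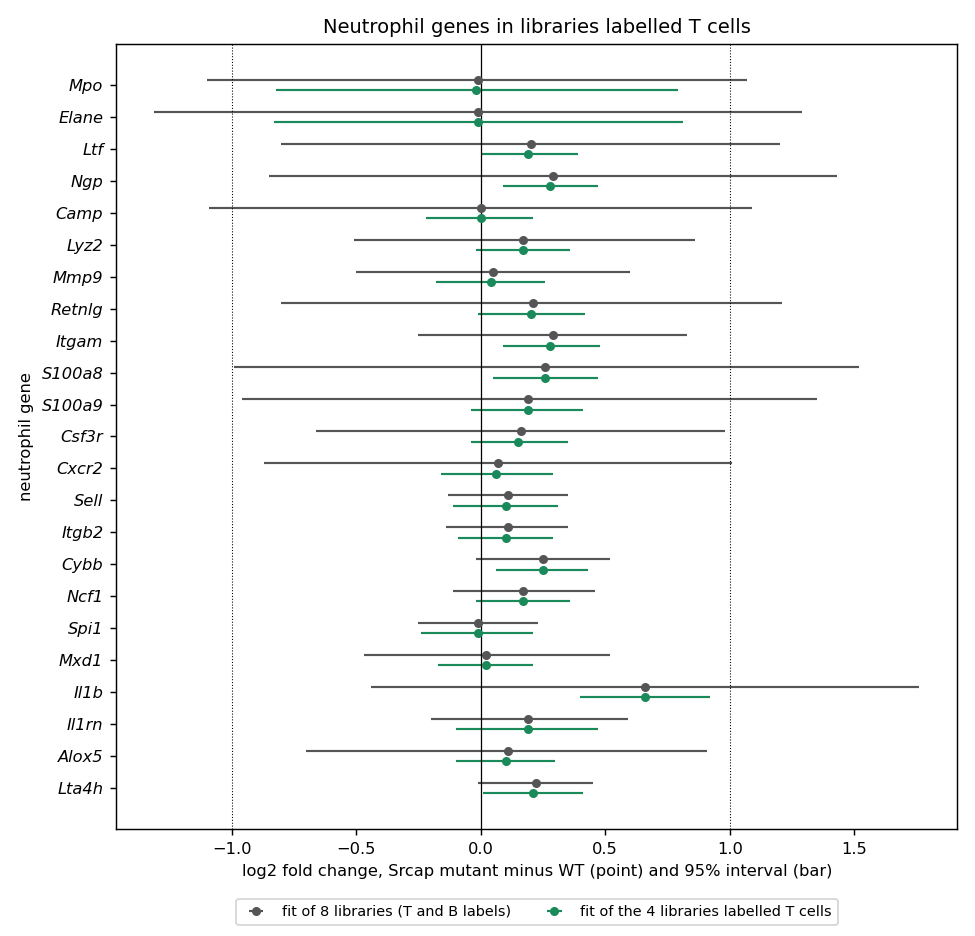
Log2 fold change (mutant minus WT) with 95% interval of 23 neutrophil genes in the libraries labelled T cells, in the fit of 8 libraries (grey) and of the 4 libraries alone (green); dotted lines mark 2-fold. Both fits give nearly the same change and differ in interval width, and no gene shown passed the test.

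Of the receptors of mature neutrophils 24 of 26 were higher, and changes had a median of 0.11 and a range of -0.06 to 0.36. Csf3r, the receptor of the growth factor G-CSF, was at 1800 and 1920 CPM in WT libraries and 1940 and 2040 CPM in mutant ones. Cxcr2, the chemokine receptor that draws neutrophils out of the marrow, was at 886 and 1040 CPM in WT, with 905 and 1030 CPM in mutants, with overlap, and Cxcr4, which retains them there, at 451 and 506 CPM in WT against 467 and 483 CPM in mutants. Tlr4, the endotoxin receptor, had the largest change of the list, 0.36 ± 0.16, at 35.8 and 39.3 CPM in WT libraries and 42.9 and 49.4 CPM in mutant ones, with an edgeR adjusted p of 0.835.

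The NADPH oxidase, which makes superoxide in the phagosome, had 6 of 8 tested subunits or partners higher and a median of 0.13. Cybb, its catalytic subunit, was at 2390 and 2480 CPM in WT, with 2700 and 2830 CPM in mutants, without overlap, a change of 0.25 ± 0.13. Cyba, its membrane partner, was at 574 and 581 CPM in WT against 578 and 458 CPM in mutants. Ncf1, a cytosolic subunit, stood at a change of 0.17. All 8 intervals lay within 2-fold in the fit of 8 libraries.

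Transcription factors of granulopoiesis divided evenly, 10 higher and 10 lower, with a median of 0.01. Spi1, the gene of the myeloid factor PU.1, was at 398 and 388 CPM in WT libraries and 410 and 337 CPM in mutant ones. Cebpe, needed for secondary granules, was at 172 and 158 CPM in WT, with 170 and 116 CPM in mutants. Irf8, which favours monocytes over granulocytes, was at 147 and 162 CPM in WT against 117 and 131 CPM in mutants, without overlap, a change of -0.25 ± 0.12 with an edgeR adjusted p of 0.835. In the fit of 8 libraries 18 of 20 intervals lay within 2-fold.

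Of 20 cytokine and chemokine genes tested, 17 were higher and the median was 0.19. Monocyte and macrophage markers went the same way, 14 of 16 higher with a median of 0.16 and none called. Their summed share was 0.491% and 0.458% in WT and 0.483% and 0.587% in mutants, with overlap, and their part in the result was not tested. Il1b, which encodes interleukin 1 beta, was at 142 and 134 CPM in WT libraries and 182 and 235 CPM in mutant ones, so both mutant libraries were above both WT ones. Its change was 0.66 (0.40 to 0.92) in the fit of the 4 libraries with an edgeR adjusted p of 0.332, and 0.66 ± 0.42 in the fit of 8 libraries. Osm, oncostatin M, was at 102 and 71.7 CPM in WT, with 136 and 122 CPM in mutants, a change of 0.64 ± 0.23 with an edgeR adjusted p of 0.822. Tnf was at 38.2 and 37.9 CPM in WT against 36.8 and 38.5 CPM in mutants, and Il1rn, the interleukin 1 receptor antagonist, at 119 and 161 CPM in WT libraries and 148 and 158 CPM in mutant ones.

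Eicosanoid synthesis genes had a median of 0.16, and 10 of 12 were higher. Ptgs2, the inducible cyclooxygenase, was at 12.6 and 9.86 CPM in WT, with 24.7 and 23.4 CPM in mutants, a change of 1.17 ± 0.35 with an edgeR adjusted p of 0.727. The leukotriene enzymes Alox5 and Lta4h stood at 0.11 ± 0.32 and 0.22 ± 0.11. Alox15, an enzyme of eosinophils and macrophages, was at 5.60 and 4.55 CPM in WT against 2.47 and 2.77 CPM in mutants, a change of -0.89 ± 0.48.

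Genes of dividing cells were lower in mutants with small changes. Of 30 genes of the G2 and M phases 29 were lower, with a median of -0.17, and in 24 both mutant libraries lay below both WT libraries, against 24.0% of all genes tested. Their summed share of counts was 0.437% and 0.402% in WT and 0.347% and 0.369% in mutants. Mki67, a proliferation marker, was at 1180 and 1030 CPM in WT libraries and 845 and 981 CPM in mutant ones, a change of -0.21 ± 0.15. Ccna2, cyclin A2, was at 171 and 161 CPM in WT, with 141 and 137 CPM in mutants, a change of -0.19 ± 0.11. None of the 30 passed the test, and all 30 intervals lay within 2-fold.

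DNA replication genes were likewise lower, 29 of 30 with a median of -0.22. In 16 of the 30 both mutant libraries lay below both WT ones, against 24.0% of all genes tested. Rrm2, a subunit of ribonucleotide reductase, was at 279 and 235 CPM in WT against 206 and 174 CPM in mutants, a change of -0.37 ± 0.13 with an edgeR adjusted p of 0.788. Mcm5, part of the replicative helicase, was at 196 and 154 CPM in WT libraries and 164 and 147 CPM in mutant ones, with overlap. In B cells the medians of these lists were -0.22 and -0.30. In HSPCs of 2 weeks the genotypes overlapped in both lists. There G2 and M phase genes took 0.521% and 0.609% of counts in WT and 0.78% and 0.586% in mutants. DNA replication genes took 0.799% and 0.848% in WT and 0.893% and 0.825% in mutants. Over the other settings tried in libraries labelled T cells the medians ran from -0.18 to -0.05 and from -0.23 to -0.04. In bulk RNA, fewer cells of a type and less RNA per cell cannot be told apart, here for dividing precursors as for every cell type below. Erythroid genes went the same way: all 14 markers tested were lower in mutants with a median of -0.76 and none called, their summed share was 1.17% and 0.682% in WT and 0.752% and 0.364% in mutants, and their part in the result was not tested.

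**Figure D4:**
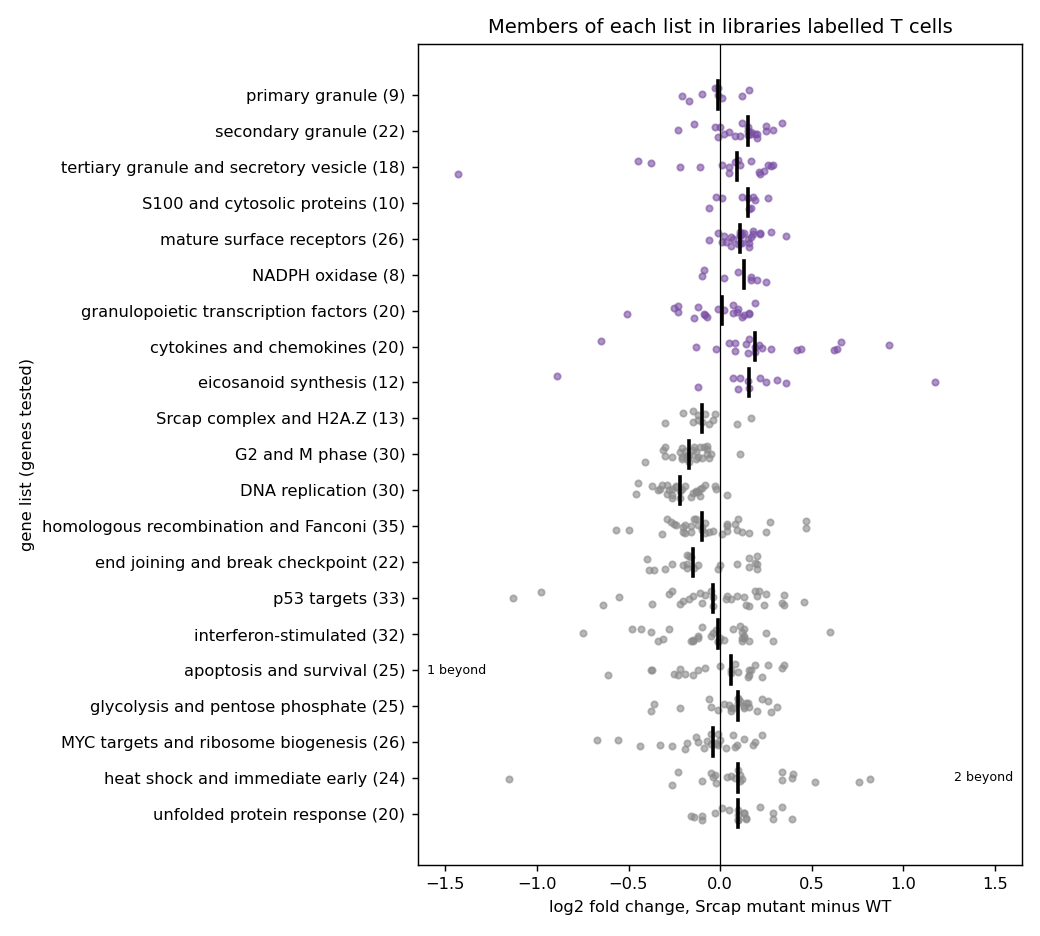
Log2 fold change (mutant minus WT) of every tested member of the 9 neutrophil lists (purple) and 12 process lists (grey) in the libraries labelled T cells, with the median as a black bar and the number of genes tested in parentheses; 3 genes beyond 1.6 on the axis are given as a number. Medians lie between -0.22 (DNA replication) and 0.19 (cytokines and chemokines).

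DNA repair, named in the title of the series, gave small changes in these cells. Homologous recombination and Fanconi genes had a median of -0.10, and 22 of 35 were lower. Over the other settings that median ran from -0.10 to 0.10, so its sign depends on the setting. Brca1, a factor of homologous recombination repair, was at 52.8 and 46.2 CPM in WT, with 34.6 and 44.8 CPM in mutants, a change of -0.25 ± 0.17. Genes of end joining and the break checkpoint had a median of -0.15, and 15 of 22 were lower, with -0.15 to -0.01 over the other settings and -0.01 without mutant replicate 2. Parp1, a sensor of strand breaks, was at 82.0 and 79.0 CPM in WT against 67.8 and 67.6 CPM in mutants, without overlap, a change of -0.18 ± 0.11. Atm, the checkpoint kinase, was at 16.2 and 16.7 CPM in WT libraries and 11.8 and 12.3 CPM in mutant ones, a change of -0.39 ± 0.13 with an edgeR adjusted p of 0.788. No gene of either list passed the test.

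Targets of p53, the damage response factor, divided into 16 higher and 17 lower with a median of -0.04, which ran from -0.04 to 0.10 over the other settings. Btg2, an antiproliferative target, was at 249 and 247 CPM in WT, with 291 and 310 CPM in mutants, a change of 0.34 ± 0.10 with an edgeR adjusted p of 0.640. Mdm2, the inhibitor of p53, was at 108 and 113 CPM in WT against 120 and 120 CPM in mutants, a change of 0.19 ± 0.10. Apoptosis and survival genes had a median of 0.06. Mcl1, on whose protein neutrophil survival depends, was at 524 and 577 CPM in WT libraries and 558 and 616 CPM in mutant ones.

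Interferon-stimulated genes had a median of -0.01, with 14 of 32 higher. Without WT replicate 1 the median was -0.17 and without WT replicate 2 it was 0.32, so its sign depends on single libraries. Oasl2, an antiviral protein, was at 219 and 411 CPM in WT, with 241 and 297 CPM in mutants, and the list took 0.296% and 0.422% of counts in WT and 0.311% and 0.349% in mutants. Glycolysis and pentose phosphate genes, which feed neutrophils with energy and NADPH, had 19 of 25 members higher and a median of 0.10. Pkm was at 1830 and 1740 CPM in WT against 1960 and 1700 CPM in mutants. MYC targets and ribosome biogenesis genes had a median of -0.04, which ran from -0.04 to 0.07 over the other settings. Of these 26 genes 9 were higher and 17 lower, with Ncl at 0.19 ± 0.14, Npm1 at 0.00 ± 0.11 and Polr1a at 0.13 ± 0.11. Odc1, the first enzyme of polyamine synthesis, had the lowest change of the list. It was at 114 and 88.8 CPM in WT libraries and 70.8 and 51.0 CPM in mutant ones, a change of -0.67 ± 0.24 with an edgeR adjusted p of 0.835. With 1 library labelled T cells left out this change ran from -0.88 to -0.37. The gene was called in 2 of 11 other settings, without a filter and with the replicate block (lowest edgeR adjusted p = 0.000256). The unfolded protein response list had a median of 0.10.

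Heat shock and immediate early genes had a median of 0.10, with 16 of 24 higher. Hspa1b, an inducible HSP70, was at 2.33 and 1.05 CPM in WT, with 9.04 and 10.4 CPM in mutants, the mutant libraries well above the WT ones. Its change was 2.59 ± 0.45 with an edgeR adjusted p of 0.132. It was called in 4 of 11 other settings (DESeq2, no filter, the replicate block and without WT replicate 1), over which adjusted p ran from 2.01e-05 to 0.871. The near-identical gene Hspa1a, with which it can share reads, was at 2.86 and 0.367 CPM in WT against 7.84 and 4.38 CPM in mutants. Fos, an immediate early gene, was at 305 and 187 CPM in WT libraries and 456 and 341 CPM in mutant ones, a change of 0.76 ± 0.41. With 1 library labelled T cells left out it ran from 0.53 to 1.21. Of the 11 other settings compared per gene, Fos was called with the replicate block alone (edgeR adjusted p = 0.00197). Zfp36, which destabilises cytokine mRNA, was at 775 and 648 CPM in WT, with 910 and 816 CPM in mutants, a change of 0.34 ± 0.14.

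The effect of genotype differed between libraries labelled T cells and B cells for 3 genes (0.0172% of 17484), with 1286 (7.36%) at an unadjusted p under 0.05. In all 3 the values in libraries labelled T cells were close between genotypes, while B cells were lower in mutants. Nlrp1a, an inflammasome sensor, was at 22.9 and 17.7 CPM in WT against 20.0 and 24.1 CPM in mutants, where B cells held 4.72 and 4.13 CPM if WT and 0.681 and 0.797 CPM if mutant. The difference of effects was 2.76 ± 0.33 with an edgeR adjusted p of 0.018. Dram1, a lysosomal regulator of autophagy induced by p53, was at 76.5 and 70.5 CPM in WT libraries and 82.8 and 78.6 CPM in mutant ones, where B cells held 6.04 and 6.39 CPM if WT and 2.84 and 2.25 CPM if mutant. That difference was 1.49 ± 0.20 with an edgeR adjusted p of 0.0204.

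Plekhg1, a guanine nucleotide exchange factor, was at 39.5 and 45.1 CPM in WT, with 45.5 and 45.8 CPM in mutants. B cells held 2.84 and 4.11 CPM in WT against 0.797 and 0.981 CPM in mutants, and the difference was 2.14 ± 0.29 with an edgeR adjusted p of 0.0204. In the fit of 12 libraries the adjusted p of Nlrp1a was 0.0229, that of Plekhg1 0.579 and that of Dram1 0.567. Without WT replicate 2 of the libraries labelled T cells none of the 3 passed, with adjusted p-values of 0.0654, 0.0654 and 0.121 for Nlrp1a, Plekhg1 and Dram1, and without WT replicate 1 Plekhg1 and Dram1 were at 0.055 and 0.0516. Neutrophil markers went the same way as these genes in B cells: all 12 were lower in mutant B cell libraries with a median of -0.85, and all 12 were at or above 0.00 in the libraries labelled T cells with a median of 0.19. None was called in either, and their part in the 3 differences was not tested.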

How the data were processed

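The deposited values are counts of fragments per gene made with featureCounts 2.0.1 from read pairs, strand-specifically, over the exons of GENCODE M28, per the file headers. The coordinates are those of GRCm39. FastQC, STAR, Subread and the builds mm39 and mm10 are named by the submitters' processing notes, with alignment and trimming settings not given in the sources used here. Replicate 2 of the mutant T and B cell samples is numbered 3 in the headers.

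Symbols of the GENCODE M21 table matched 52081 of 55414 gene IDs, and 99.84% of the counts fell in genes with one. Genes were kept by filterByExpr (minimum 10 counts, total 15), TMM-scaled and tested with the robust quasi-likelihood method of edgeR 4.0.16, the 8 T and B cell libraries forming 4 groups without covariates. A gene was called when its p, adjusted by Benjamini-Hochberg over the 17484 genes, was under 0.05. Intervals are 95%. An exact permutation test of 2 against 2 libraries cannot go below p = 0.333 and was not used. The fit was tested on simulated counts with known changes. Counts were drawn independently per library with the per-gene spread of the fit of 8 libraries. Only genes above a mean of 0.3 CPM in libraries labelled T cells were changed. Differences in cell mixture or effects shared between libraries were not simulated, so the rates below hold for that setting only. There edgeR called 47% of the genes changed 2-fold and 81% of those changed 4-fold, and 11 of its 139 calls were false. DESeq2 called 54% and 84%, with 38 of 176 calls false. A gene that did not pass the test can therefore still have changed. Other settings were no filter, RLE size factors, DESeq2 1.42.0, a replicate block, fits of 12 and of 4 libraries, and each library left out in turn. For changes of single genes within libraries labelled T cells, only libraries of that label were left out. The fits without a B cell library do not enter those ranges and calls.

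The comparison and the gene lists were chosen with earlier results of these data known. Named genes are Srcap, up to 12 called genes per direction without overlap between genotypes and averaging log2 CPM 1 or more, of each list the called members and the 4 of highest mean CPM, called differences from B cells, and cell type markers as ranges. Others were chosen after their values were seen: Alpl, Alox15, Atm, Cebpa, Cebpe, Cxcr4, Cyba, Hspa1a, Hspa1b, Irf8, Osm, Ptgs2, Tlr4, Tnf, the T cell and progenitor markers shown singly (Cd3e, Cd3d, Trac, Bcl11b, Kit) and those of the closing section. Where a group had no count, the fold was set against 3 counts in each library, which allows for counting error alone. Among the genes so named, 1 is not reported here.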

Additional observations from a re-analysis of the deposited data

Results flagged for a closer look

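For 3 genes the mutant effect in libraries labelled T cells differed from that in B cells by a test of the difference itself, the contrast of both effects in 1 edgeR fit. The differences were 2.76 for Nlrp1a, 2.14 for Plekhg1 and 1.49 for Dram1 on the log2 scale. The effects were 0.18, 0.18 and 0.20 in libraries labelled T cells and -2.58, -1.97 and -1.29 in B cells. HSPCs of the same time point held Nlrp1a at 12.0 and 10.7 CPM in WT libraries and 10.3 and 10.4 CPM in mutant ones, Plekhg1 at 0.544 and 1.26 CPM in WT, with 1.27 and 0.341 CPM in mutants, and Dram1 at 7.87 and 9.34 CPM in WT against 6.31 and 15.2 CPM in mutants. With 2 libraries in a group no test for a single deviating library could be made.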

How the results depend on the processing

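The 2 calls in libraries labelled T cells became 24 in DESeq2, 145 without a filter (15 higher, 130 lower), 1 with RLE size factors, 1 in the fit of 12 libraries and 0 in the fit of the 4 libraries alone. Leaving out 1 library gave 1 to 11 calls: 11 and 3 without WT replicates 1 and 2, 5 and 1 without mutant replicates 1 and 2, and 2, 2, 8 and 8 without each B cell library, the last an alternative chosen after seeing the data. Without a library 19081 to 19418 genes were tested, since a group of 1 loosens the filter, and the lone library is assumed to vary like the others. Without lymphoid, erythroid and immunoglobulin genes, also added after seeing the data, 2 were called, the same genes. The 3 differences from B cells became 140 in DESeq2, 357 without a filter, 1 in the fit of 12 libraries, and 0 to 393 when 1 library was left out: 2 and 0 without WT replicates 1 and 2, 7 and 5 without mutant replicates 1 and 2 of the T label, 45 and 13 without WT and 393 and 6 without mutant B cell replicates 1 and 2. With the replicate block there were 101 calls (7 higher, 94 lower) and 35 differences. The labels do not pair libraries or give the origin of replicates. The block and the correlations below used the label numbers, whereas the headers number replicate 2 of both mutant groups as 3. Over 10232 genes the deviations of same-numbered libraries correlated at 0.19 between the genotypes labelled T cells, at 0.05 between those of B cells, and at 0.23, 0.07, 0.24 and 0.02 across the labels, so whether the numbers mark a shared origin is not settled. The cause of these changes was not tested.

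Changes near 0 turned sign. Mpo was 0.02, 0.02 and 0.05 and Elane 0.03, 0.03 and 0.05 under DESeq2, RLE size factors and the fit of 12 libraries, as were Prdx5 (0.01, 0.01, 0.03), Spi1 (0.03, 0.03, 0.05) and Ifitm3 (0.02, 0.02, 0.05). Anp32e and Oas3 were 0.02 in the fit of 12 libraries, Mpo 0.00 and Camp -0.01 with the replicate block, Camp and Npm1 0.00 without a filter and in the fit of the 4 libraries, and without the lymphoid and erythroid genes Camp and Npm1 were -0.01 and S100a6 0.00. Over the leave-outs the range was -0.16 to 0.14 for Srcap, -0.23 to 0.39 for Mpo, -0.29 to 0.35 for Elane, -0.08 to 0.20 for Camp, -0.05 to 0.26 for Mmp9, -0.13 to 0.19 for Prdx5, -0.11 to 0.21 for Spi1, -0.07 to 0.12 for Anp32e, -0.07 to 0.04 for Top2a, -0.16 to 0.06 for Rrm1, -0.19 to 0.14 for Mcm5, -0.23 to 0.09 for Mcm6, -0.01 to 0.15 for Dna2, -0.11 to 0.08 for Rad54l, -0.09 to 0.21 for Ifitm3, -0.11 to 0.17 for Oas3, -0.49 to 0.43 for Oasl2, -0.10 to 0.54 for Oas2, -0.09 to 0.31 for Tkt and 0.00 to 0.13 for Npm1. Of the other values per gene and alternative, 1077 kept direction and side of the threshold, 44 gained and 14 lost a call.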

Other observations

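The genes below were chosen after their values were seen, and none passed the edgeR test in the fit of 8 libraries for libraries labelled T cells. Under other settings each was called at least once. Ccr9, Il2rb, Igkv10-94, Sh3pxd2a, Gm4779 and Eps8l1 were called in DESeq2, without a filter and with the replicate block, Ccr9 and Eps8l1 also without WT replicate 1 and Eps8l1 without WT replicate 2. 8030474K03Rik was called in DESeq2 and without a filter, and Il7r, Car1, Epor and Trf without a filter and with the replicate block. None was called with RLE size factors, in the fit of 12 libraries or in that of the 4 libraries alone. Of the 50 genes with the smallest p, 39 were lower in mutants and 6 were immunoglobulin segments. Of the 234 immunoglobulin variable segments among the 17484 genes tested, 118 were lower, with a median of -0.05 and none called. Il7r, the interleukin 7 receptor of lymphoid cells, was at 20.2 and 21.9 CPM in WT libraries and 14.0 and 14.1 CPM in mutant ones (edgeR adjusted p = 0.308). Ccr9, a homing receptor of lymphoid and plasmacytoid dendritic cells, was at 2.05 and 3.72 CPM in WT, with 0.689 and 0.680 CPM in mutants (edgeR adjusted p = 0.116), and Il2rb, the interleukin 2 receptor beta chain, at 8.10 and 8.83 CPM in WT against 3.59 and 4.17 CPM in mutants (edgeR adjusted p = 0.284). Igkv10-94, an immunoglobulin kappa segment, was at 1.24 and 1.0 CPM in WT libraries and 0.124 and 0.0698 CPM in mutant ones (edgeR adjusted p = 0.0562). Beside these, 13 of 15 T cell markers tested were lower in mutants with a median of -1.23, and 9 of 10 NK cell markers with a median of -0.65. The part of these marker lists in the values was not tested.

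The erythroid genes Car1, carbonic anhydrase 1, and Epor, the erythropoietin receptor, were at 29.6 and 27.2 CPM and 22.4 and 18.1 CPM in WT and at 13.4 and 14.2 CPM and 10.8 and 5.46 CPM in mutants. Trf, transferrin, went the other way, at 110 and 98.6 CPM in WT, with 138 and 163 CPM in mutants (0.60 ± 0.13, edgeR adjusted p = 0.403). Sh3pxd2a, a scaffold of podosomes, was at 10.3 and 10.7 CPM in WT against 5.07 and 5.60 CPM in mutants (-0.91 ± 0.17, edgeR adjusted p = 0.206).

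For 3 further genes, examples rather than a full list, the genotypes did not overlap in any of the 3 kinds of library of 2 weeks. Hspa1b, described above, did not overlap in any of them either. How many of all genes tested do so was not counted. In libraries labelled T cells alone, both mutant libraries lay above both WT ones for 12.7% of genes and below them for 24.0%. Gm4779 and 8030474K03Rik, neighbouring genes of the X chromosome, had no count in either mutant library labelled T cells, against 1.45 and 1.17 CPM and 0.684 and 0.465 CPM in WT, which is at least 24.9-fold and 10.9-fold lower with a floor of 3 counts per library. They also had no count in the mutant B cell and HSPC libraries, where WT B cells held Gm4779 at 2.82 and 5.27 CPM and WT HSPCs at 1.46 and 1.51 CPM. Eps8l1, an actin regulator of the Eps8 family on chromosome 7, had 16 and 0 counts in WT and 566 and 386 counts in mutants, where B cells held 0.480 and 0.314 CPM if WT and 23.7 and 21.2 CPM if mutant and HSPCs 0.172 and 0 CPM if WT and 6.37 and 7.77 CPM if mutant. Their edgeR adjusted p-values in libraries labelled T cells were 0.116, 0.414 and 0.226, and those in B cells 0.00851, 0.0324 and 0.0234.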
